A study of Mus musculus with 12 samples.

Results

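RNA levels were compared between L929 cells that had received transfected DNA together with AOA and cells that had received the DNA alone. The comparison used the 3 HT-DNA+AOA and the 3 HT-DNA libraries, 6 of the 12 libraries of the series, chosen by their column names. L929 is an established mouse fibroblast line, of wild-type genotype per the labels. HT-DNA was delivered to both groups with a Lipofectamine reagent, at a dose given as 0.5 with a garbled unit that was read here as µg per ml. The design text gives 0.5 mM of a compound abbreviated A for 1 h, then HT-DNA for 6 h, and 20 mM asp, for cells taken for PCR, and these times and doses are assumed to hold for the libraries. The other 6 libraries came from mock cells and from cells given HT-DNA, AOA and Asp.

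The labels do not spell out AOA, which commonly stands for aminooxyacetate. Aminooxyacetate reacts with pyridoxal phosphate, the vitamin B6 cofactor of aminotransferases, the enzymes that move amino groups between amino acids and keto acids. It is best known for blocking aspartate aminotransferase and with it the malate-aspartate shuttle, which carries reducing equivalents into mitochondria. In fibroblasts, cytosolic DNA is sensed by cGAS and STING, which lead to interferon and NF-kB target genes. No library with AOA but without HT-DNA was analysed here, so an effect on the response to DNA and an effect of AOA whatever the DNA cannot be told apart. Nothing states that the 3 libraries of a group came from separate cultures, and the p-values here cover only the spread among the libraries.

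The 6 libraries held 19944571 to 27309291 estimated counts, and 14694 genes passed the filter on low counts in the fit of all 12 libraries. Levels are in CPM, the usual unit of counts scaled to library size, here with TMM factors. CPM is not per gene length, so levels are compared between samples and not between genes. Changes are log2 fold changes of HT-DNA+AOA over HT-DNA with standard errors (SE). A gene was called at an edgeR adjusted p under 0.05. In a principal component analysis of the 6 libraries the first component held 61.8% of the variance and separated the groups. The summed level of 12 fibroblast markers was 5703 to 6321 CPM in HT-DNA and 5130 to 5266 CPM in HT-DNA+AOA. It was mostly Vim, at means of 3624 and 3043 CPM. Of 12 macrophage and leukocyte markers Adgre1, Itgam and Cd3e had no count in any of the 6 libraries, and the sum of 247 to 254 CPM in HT-DNA and 320 to 361 CPM with AOA was mostly Cd68. Endothelial markers summed to 3.07 to 4.46 CPM, epithelial markers to 1.23 to 2.77 CPM and adipocyte and muscle markers to 162 to 184 CPM, with Myod1 and Myog at 0.

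AOA was accompanied by a broad change in both directions. Of the genes tested, 3750 (25.5%) were higher and 3896 (26.5%) were lower, together 52% of all. For 57.6% of the genes the 3 values of one group did not overlap those of the other. These shares are the background for every count below, since a list of any kind holds many called genes. List counts are of the members that passed the filter on low counts, and another scaling or a left-out library is named where it moved a count by over 1.5 times. Most changes were small: the median absolute log2 fold change was 0.28 over all genes and 0.42 over called genes. At least 2-fold changes were seen for 711 higher and 429 lower genes, at least 4-fold for 143 and 41, and at least 8-fold for 30 and 9. The 95% interval lay within 0.32 of no change on the log2 scale for 4123 genes, among them 1061 that were called. For 3986 genes that were not called, the interval reached beyond that limit and allows a change of that size. The median log2 fold change of all genes was 0.003.

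**Figure D1:**
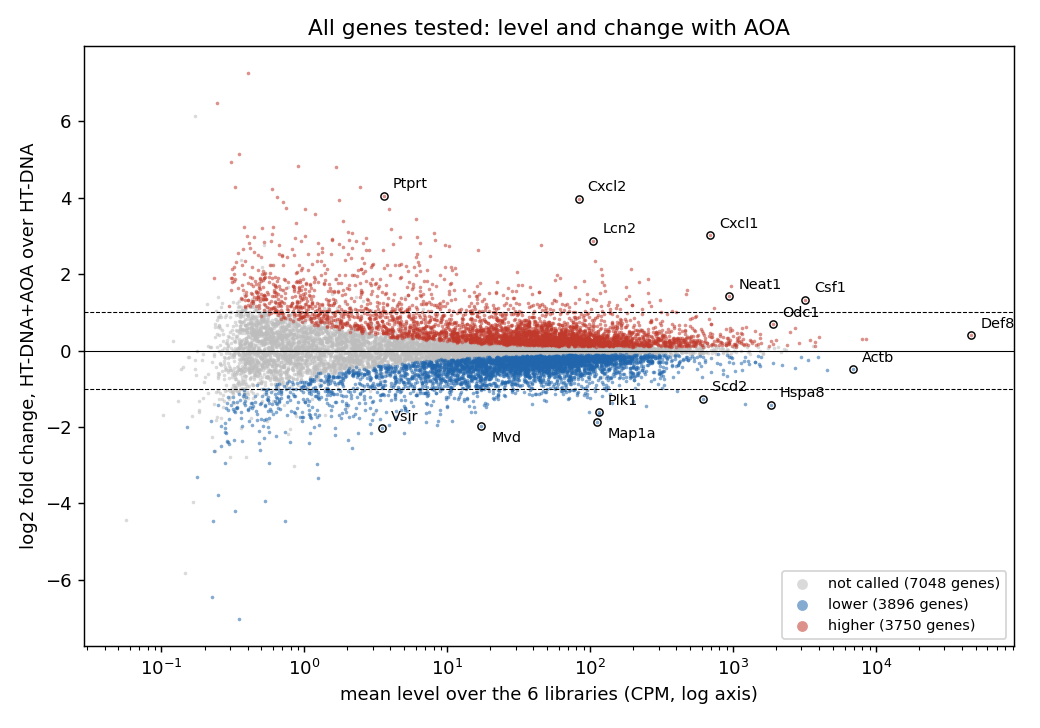
Each point is 1 of the 14694 genes tested, with the mean level over the 6 libraries in CPM (log axis) against the log2 fold change of HT-DNA+AOA over HT-DNA; red is higher, blue lower and grey not called by edgeR, and dashed lines mark 2-fold. Red and blue clouds of 3750 and 3896 genes spread to both sides at all levels, with Cxcl1, Csf1 and Neat1 among the abundant genes that rose and Hspa8, Scd2 and Actb among those that fell.

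The 10 largest rises among genes with a name and 5 CPM or more were Ptprt, Cxcl2, Sspo, Mamdc2, Prr32, Cxcl1, Dnah14, Lcn2, Ifi44 and Abcb1a. Cxcl2, Cxcl1, Lcn2 and Ifi44 belong to inflammation or the interferon response, while Ptprt is a receptor tyrosine phosphatase, Sspo a large secreted protein known from the brain, Dnah14 a dynein heavy chain of cilia and Abcb1a a drug efflux pump. Ptprt was at 0.190, 0.538 and 0.500 CPM in the HT-DNA libraries and 6.03, 7.38 and 6.95 CPM with AOA (log2 change 4.06, SE 0.26, edgeR adjusted p = 3.93e-11). Cxcl2 was at 10.2, 10.8 and 8.40 CPM in the HT-DNA libraries and 119, 175 and 172 CPM with AOA (log2 change 3.98, SE 0.16, edgeR adjusted p = 1.14e-08). Both were above every HT-DNA library in each AOA library, and Cxcl2, a neutrophil chemokine, was lower in replicate 1 than in the other AOA libraries. Dnah14 was at 1.48, 1.23 and 1.45 CPM in the HT-DNA libraries and 10.3, 11.03 and 11.2 CPM with AOA (log2 change 2.96, SE 0.15, edgeR adjusted p = 6.02e-13). Abcb1a was at 0.799, 0.923 and 1.45 CPM in the HT-DNA libraries and 6.08, 7.45 and 8.13 CPM with AOA (log2 change 2.80, SE 0.26, edgeR adjusted p = 9.02e-09). For Dnah14 and Abcb1a the groups did not overlap either, but the naming rule required this. It was required of all genes named by their change, here and below, so their separation is not a result. Only the 11 genes named whatever their values were exempt. Sspo, Mamdc2 and Prr32 had log2 fold changes of 3.71, 3.44 and 3.17, with edgeR adjusted p of 3.53e-11, 1.26e-11 and 1.10e-10, all from under 1.5 CPM in each HT-DNA library.

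The 10 largest falls were Vsir, Mvd, Nat14, Camsap3, Map1a, Ldb3, Pvrig, Fam189b, Tle6 and Dixdc1. Map1a, a microtubule-associated protein, was the most counted of them. Map1a was at 169, 171 and 185 CPM in the HT-DNA libraries and 54.5, 44.6 and 44.8 CPM with AOA (log2 change -1.87, SE 0.064, edgeR adjusted p = 9.79e-15). Camsap3 was at 6.58, 6.23 and 5.70 CPM in the HT-DNA libraries and 1.59, 1.57 and 1.67 CPM with AOA (log2 change -1.94, SE 0.16, edgeR adjusted p = 1.03e-09), and this gene encodes a protein of microtubule minus ends. Ldb3 was at 15.3, 18.2 and 17.2 CPM in the HT-DNA libraries and 4.63, 4.53 and 4.83 CPM with AOA (log2 change -1.86, SE 0.10, edgeR adjusted p = 1.34e-12), and its product belongs to the Z-disc of muscle. For each of these genes every HT-DNA value was above every HT-DNA+AOA value, as the naming rule required. Vsir and Pvrig encode immune checkpoint proteins of leukocytes. Vsir was at 4.60, 6.73 and 5.55 CPM in the HT-DNA libraries and 1.246, 1.69 and 1.13 CPM with AOA (log2 change -2.03, SE 0.19, edgeR adjusted p = 7.95e-09). Pvrig was at 13.5, 12.8 and 14.2 CPM in the HT-DNA libraries and 4.24, 3.42 and 3.75 CPM with AOA (log2 change -1.83, SE 0.14, edgeR adjusted p = 1.14e-09). Mvd, of the mevalonate pathway, Dixdc1, a Wnt pathway protein, and Nat14, Fam189b and Tle6 had log2 changes of -1.98, -1.67, -1.96, -1.78 and -1.75, with edgeR adjusted p of 3.41e-13, 5.24e-11, 1.68e-11, 1.06e-06 and 1.05e-09.

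In all 10 rises the 3 HT-DNA+AOA libraries lay above all 9 other libraries of the series, and in all 10 falls they lay below them. Mean levels in mock and in HT-DNA+AOA+Asp were 10.97 and 8.44 CPM for Cxcl2, 0.582 and 0.466 CPM for Ptprt, and 183 and 195 CPM for Map1a. Over all genes, the HT-DNA+AOA libraries lay above the 9 others for 2642 of the 3750 genes called higher (70.45%) and below them for 2707 of the 3896 called lower (69.48%). Genes with no count in a group were few. Aox3, an aldehyde oxidase, had no count in the HT-DNA libraries and 11, 29 and 17 counts with AOA, while Tmem265 had 28, 12 and 11 counts in HT-DNA and none with AOA.

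**Figure D2:**
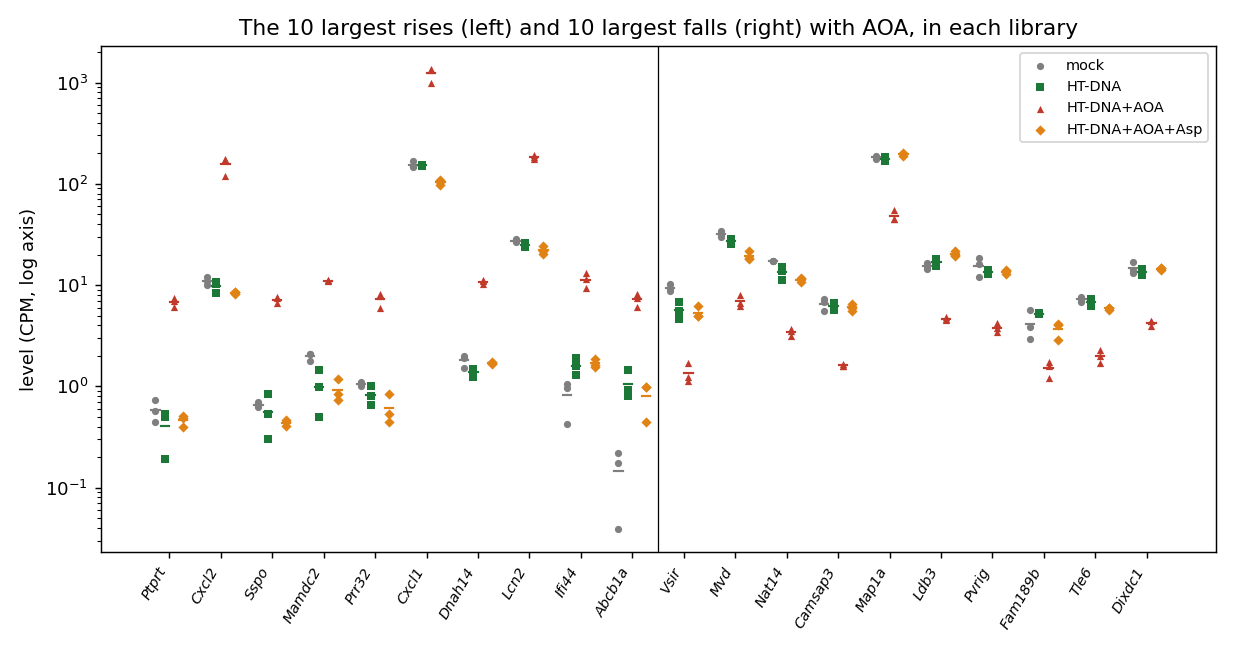
Level in CPM (log axis) of the 10 largest rises and the 10 largest falls in each of the 12 libraries, with points for libraries, short lines for the mean of 3, and grey, green, red and orange for mock, HT-DNA, HT-DNA+AOA and HT-DNA+AOA+Asp. The red points stand above all others for the genes on the left and below all others for the genes on the right.

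Called changes of at least 2-fold were more frequent among genes of low level. At 1 to 5 CPM in the higher group, 281 of 2459 genes (11.43%) were at least 2-fold higher, against 53 of 2492 (2.127%) at 100 CPM or more. Shares of 5.734% and 1.083% were at least 2-fold lower. The 1753 genes under 1 CPM had a median SE of 0.43 on the log2 scale, those of 1 to 5 CPM 0.25 and those of 100 CPM or more 0.047. Small changes of rare RNAs were thus less often detectable, and 153 of the 165 genes called higher under 1 CPM were at least 2-fold higher. How much of the excess of large changes came from imprecise estimates at low level was not tested.

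Of 1134 long noncoding genes by GENCODE annotation, 264 were higher and 113 lower, with a median log2 fold change of 0.21. Of 388 transcribed regions of undecided class, 103 were higher and 21 lower, with a median of 0.41. Of 11917 protein-coding genes, 3132 were higher and 3634 lower, with a median of -0.02. Counts were also taken among genes of like level. At 5 to 20 CPM, 62 of 153 long noncoding genes (40.52%) were higher and 28 (18.3%) lower, against 506 (22.13%) and 735 (32.15%) of 2286 protein-coding genes. The summed level of long noncoding genes was 8855, 8845 and 9130 CPM in HT-DNA and 10810, 10970 and 11510 CPM with AOA, above these values in each library. Mock libraries lay at 9351 to 10180 CPM and HT-DNA+AOA+Asp libraries at 9919 to 10100 CPM. Strand-specific counting is not stated in the sources used here, so reads of noncoding genes and of genes that overlap them cannot be told apart.

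Among 29 RNAs of the nucleus and hosts of small nucleolar RNAs (snoRNAs), 18 rose, 3 fell and 8 were not called, with a median of 0.55. Neat1 was at 466, 514 and 558 CPM in the HT-DNA libraries and 1321, 1193 and 1586 CPM with AOA (log2 change 1.42, SE 0.15, edgeR adjusted p = 3.95e-05). Neat1 is the scaffold RNA of paraspeckles, and its mean levels in mock and HT-DNA+AOA+Asp were 1196 and 1122 CPM, so HT-DNA alone was the lowest of the 4 group means. Snhg1 was at 71.6, 74.2 and 72.8 CPM in the HT-DNA libraries and 158, 159 and 176 CPM with AOA (log2 change 1.17, SE 0.048, edgeR adjusted p = 2.41e-14). Snhg12 was at 27.99, 27.7 and 27.5 CPM in the HT-DNA libraries and 60.2, 67.04 and 66.9 CPM with AOA (log2 change 1.22, SE 0.059, edgeR adjusted p = 2.85e-13). Both are snoRNA host transcripts, and their values in mock, 60.3 and 22.6 CPM, lay below those in HT-DNA. Norad, Tug1 and Snhg18, the 3 that fell, were named after their values were seen and had log2 changes of -0.71, -0.33 and -0.31.

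Protein-coding genes of 5 CPM or more, 9775 in number, were also sorted by features of their transcripts. In the quintile with the lowest GC content 31.61% were higher and 28.03% lower, and in the quintile with the highest 23.99% and 39.85%, with medians of 0.019 and -0.073. From the fewest to the most exons the share that was lower went from 29.72% to 39.08%. From the shortest to the longest transcripts the quintiles had 24.14%, 35.24%, 37.54%, 38.67% and 33.91% lower, while the share that was higher lay between 26.5% and 30.64%. By gene span the share that was lower lay between 29.57% and 37.14%. The medians of the quintiles for transcript length and gene span all lay between -0.05 and 0.013. Whether GC content, exon number, length or span had a part in the results below was not tested.

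**Figure D3:**
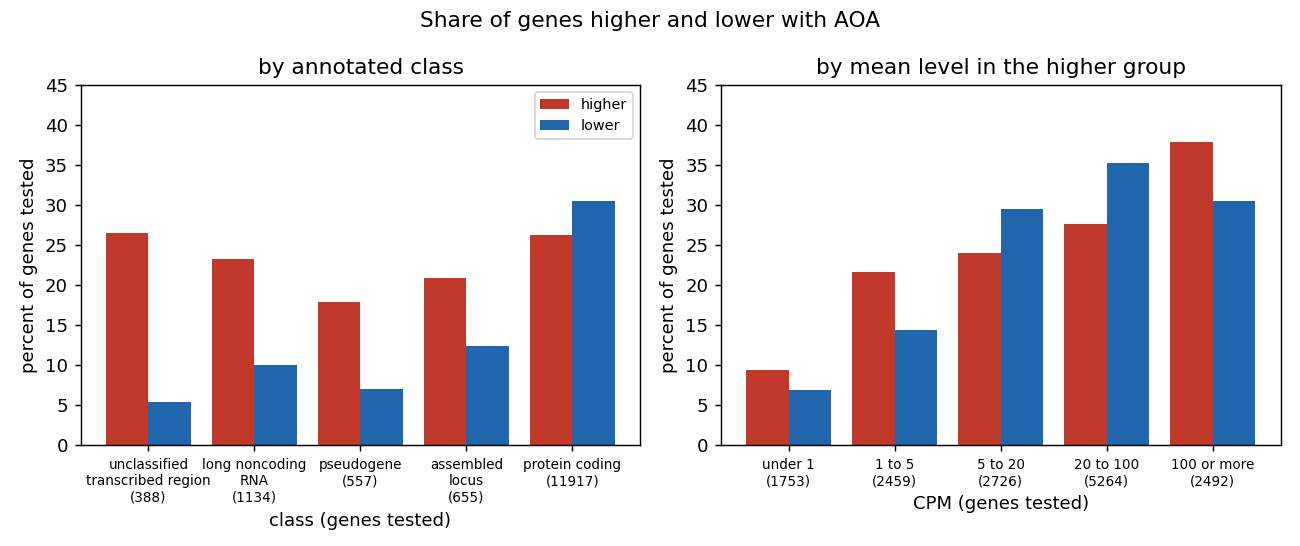
Share of tested genes that were higher (red) or lower (blue) with AOA by edgeR, in percent, by GENCODE class on the left and by mean level in CPM in the higher group on the right, with the number of genes tested in brackets. Red exceeds blue for unclassified regions, long noncoding genes, pseudogenes and assembled loci, while blue exceeds red among protein-coding genes, at 30.49% against 26.28%.

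The genes that gained most counts were Def8, Csf1, mt-Co1, Eef1a1 and mt-Cytb, and those that lost most were Actb, Hspa8, Hspa5, Hsp90b1 and mt-Nd1, leaving out an unnamed near-copy of Hspa8. Csf1 was at 1782, 1822 and 1814 CPM in the HT-DNA libraries and 3974, 4796 and 4895 CPM with AOA (log2 change 1.33, SE 0.058, edgeR adjusted p = 1.21e-13). Csf1 is the growth factor of macrophages. Actb was at 8118, 8233 and 7863 CPM in the HT-DNA libraries and 5922, 5613 and 5660 CPM with AOA (log2 change -0.49, SE 0.042, edgeR adjusted p = 2.10e-09). Hspa8 was at 2798, 2621 and 2536 CPM in the HT-DNA libraries and 1110, 978 and 897 CPM with AOA (log2 change -1.41, SE 0.06, edgeR adjusted p = 1.80e-13). Actb encodes beta-actin and Hspa8 the constitutive cytosolic chaperone, and their mean levels in mock were 4929 and 1476 CPM, so HT-DNA alone was the higher group for both. Gapdh, often used as a reference, had a log2 change of -0.03 (SE 0.049) with edgeR adjusted p = 0.634. Def8 was the most counted entry of every library, with 3.797% to 5.26% of the counts of the 6. Its values, 38130, 38490 and 43430 CPM in HT-DNA and 49460, 55190 and 53180 CPM with AOA, are uncertain because reads of overlapping or similar sequence may be counted there. The 10 genes that gained most held 20.67% of the summed gain over all genes, of which Def8 alone held 10.52%. With Def8 left out of both sums the share of the 10 that gained most was 12.1%, and the 10 genes that lost most held 12.73% of the summed loss.

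Ribosomes are built in the nucleolus. Of 50 ribosome biogenesis genes, 31 rose, 4 fell and 15 were not called, with a median of 0.16. Nop56 was at 348, 373 and 369.5 CPM in the HT-DNA libraries and 664, 659 and 663 CPM with AOA (log2 change 0.86, SE 0.04, edgeR adjusted p = 1.28e-13). Rrs1 was at 150.3, 147 and 138 CPM in the HT-DNA libraries and 244, 274 and 264 CPM with AOA (log2 change 0.84, SE 0.061, edgeR adjusted p = 8.85e-10). Nop56 is a core protein of snoRNA particles and Rrs1 an assembly factor of the large subunit. In mock they were lower than in HT-DNA, at 224 and 102 CPM. Rrp1b, another nucleolar protein, had a log2 change of 0.62 (SE 0.043, edgeR adjusted p = 9.86e-11). Of 28 subunits of RNA polymerases I, II and III, 4 rose and 10 fell, or 2 rose without a filter on counts, without HT-DNA+AOA replicate 3 or with library size alone. The subunits named by the rule were Polr3k, Polr3b and Polr1c at log2 changes of -0.74, -0.60 and -0.42 (edgeR adjusted p of 1.14e-08, 7.31e-09 and 1.05e-04).

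Of 87 cytosolic ribosomal protein genes, 41 rose and 1 fell, with small changes: the median was 0.13, and 65 had an interval within 0.32 of no change on the log2 scale. Rpl10a was at 583, 607 and 547 CPM in the HT-DNA libraries and 807, 772 and 806 CPM with AOA (log2 change 0.46, SE 0.045, edgeR adjusted p = 2.11e-08). Their summed level was 51030, 51030 and 45580 CPM in HT-DNA, the third library being the low one, and 55130, 53600 and 54690 CPM with AOA. Without HT-DNA replicate 3 the number that rose was 27, and with library size alone as scaling it was 25. Of 78 mitochondrial ribosomal protein genes 22 rose and 19 fell, near the background in both directions, and 14 rose with library size alone as scaling. Mrps6, Mrpl43 and Mrpl40 had log2 changes of -0.77, -0.76 and -0.68, with edgeR adjusted p of 1.14e-09, 5.21e-09 and 8.21e-08.

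Cytosolic aminoacyl-tRNA synthetases, which charge tRNAs with amino acids, rose in 13 of 20 cases and fell in 3, with a median of 0.23. Eprs was at 430.1, 431 and 469 CPM in the HT-DNA libraries and 647, 620.1 and 624 CPM with AOA (log2 change 0.51, SE 0.043, edgeR adjusted p = 2.54e-09). Aars was at 511, 493 and 481 CPM in the HT-DNA libraries and 706, 703 and 701 CPM with AOA (log2 change 0.51, SE 0.041, edgeR adjusted p = 1.38e-09). These are the synthetases for glutamate with proline and for alanine. Of 17 mitochondrial synthetases 5 rose and 2 fell. Of 67 translation factors 31 rose and 15 fell. Eif1, of start codon selection, rose (log2 change 0.60, SE 0.053, edgeR adjusted p = 4.82e-09), while Eif2ak3, the stress kinase PERK, fell (log2 change -0.98, SE 0.066, edgeR adjusted p = 6.40e-11). Eif1ad6, a copy related to Eif1ad, had a log2 change of 2.54 from 1.79, 1.42 and 2.25 CPM in HT-DNA.

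Of 50 core spliceosome genes 11 rose and 24 fell, while of 36 SR and hnRNP genes and their kinases, which steer splice site choice, 20 rose and 5 fell. U2af2 was at 363, 351 and 329 CPM in the HT-DNA libraries and 221, 198 and 204 CPM with AOA (log2 change -0.75, SE 0.049, edgeR adjusted p = 3.68e-11). Sf3b3 was at 472, 464 and 475 CPM in the HT-DNA libraries and 318, 278 and 279 CPM with AOA (log2 change -0.69, SE 0.046, edgeR adjusted p = 5.81e-11). U2af2 and Sf3b3, of 3′ splice site and branch point recognition, were both lower with AOA. Hnrnpu was at 918, 979 and 992 CPM in the HT-DNA libraries and 1429, 1483 and 1524 CPM with AOA (log2 change 0.62, SE 0.057, edgeR adjusted p = 1.57e-08). Srsf3 was at 243, 267 and 249 CPM in the HT-DNA libraries and 149, 145 and 150.4 CPM with AOA (log2 change -0.78, SE 0.044, edgeR adjusted p = 3.84e-12). Hnrnpu, a nuclear matrix RNA-binding protein, rose and Srsf3, an SR protein, fell within the same list. With library size alone as scaling, 7 core spliceosome genes rose. Of 50 nuclear pore and transport genes 12 rose and 21 fell, among them the export receptor Xpo1 at a log2 change of -0.61 (SE 0.044, edgeR adjusted p = 1.72e-10). In mRNA decay, 10 of 40 rose and 11 fell, with Upf3b and Smg5, of nonsense-mediated decay, at log2 changes of -0.82 and -0.60 (edgeR adjusted p of 5.36e-08 and 1.20e-09).

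Of 309 numbered zinc finger genes, many of them repressors of transcription, 106 rose and 40 fell, with a median of 0.17. Zfp945 and Zfp628 had log2 changes of 1.01 and 1.09 and Zfp324 one of -1.22, with edgeR adjusted p of 6.07e-10, 0.00365 and 1.66e-08. Of 68 chromatin modifiers 17 rose and 26 fell. Hdac7 was at 117, 121 and 117 CPM in the HT-DNA libraries and 58.3, 58.8 and 63.1 CPM with AOA (log2 change -0.98, SE 0.045, edgeR adjusted p = 1.34e-13). Hdac4 was at 35.5, 32.7 and 36.4 CPM in the HT-DNA libraries and 60.6, 57.2 and 59.8 CPM with AOA (log2 change 0.77, SE 0.056, edgeR adjusted p = 2.23e-10). Hdac7 and Hdac4, both class IIa histone deacetylases, went in opposite directions. Chd7, a chromatin remodeler, had a log2 change of 0.89 (SE 0.061, edgeR adjusted p = 1.40e-10).

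**Figure D4:**
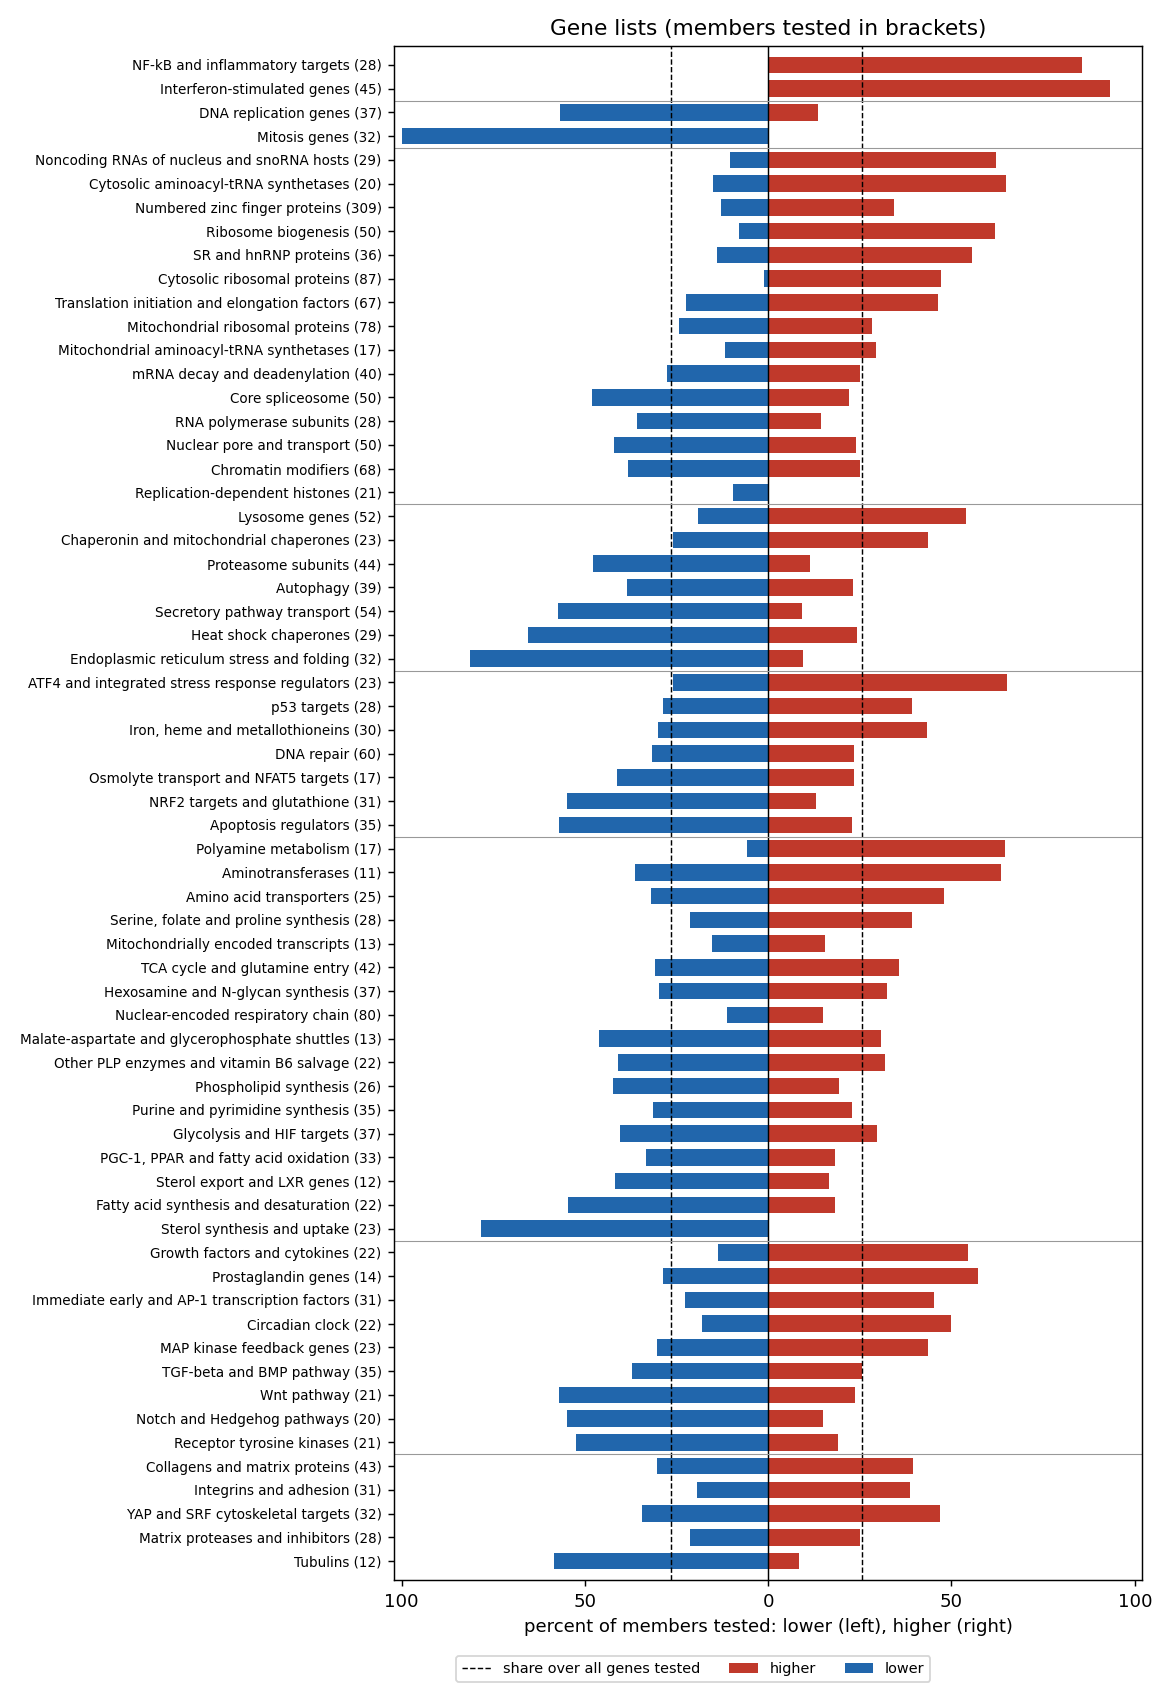
Share of the tested members of each gene list that were higher (red, to the right) or lower (blue, to the left) with AOA by edgeR, in percent, for lists with 10 or more members tested, grouped by role and ordered by median log2 fold change; dashed lines mark the shares over all genes, 25.5% and 26.5%. Interferon and NF-kB genes, snoRNA hosts and cytosolic tRNA synthetases reach far to the right, and mitosis, endoplasmic reticulum and sterol genes far to the left, while respiratory chain genes stay short of both lines.

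Most genes of folding and degradation in the endoplasmic reticulum (ER) fell. The unfolded protein response uses IRE1, PERK and ATF6 to raise chaperones and factors of ER-associated degradation. Of 32 ER stress and folding genes 3 rose, 26 fell and 3 were not called, with a median of -0.49, and their summed level was 22010, 21770 and 21680 CPM in HT-DNA and 16620, 16140 and 16050 CPM with AOA. Herpud1 and Syvn1 act in ER-associated degradation. Herpud1 was at 179.7, 176 and 172 CPM in the HT-DNA libraries and 63.03, 54.3 and 49.6 CPM with AOA (log2 change -1.67, SE 0.061, edgeR adjusted p = 1.36e-14). Syvn1 was at 148, 147 and 151 CPM in the HT-DNA libraries and 53.2, 48.8 and 44.8 CPM with AOA (log2 change -1.60, SE 0.059, edgeR adjusted p = 3.59e-15). In both genes replicate 1 was the highest of the AOA libraries. Hspa5 was at 5429, 5315 and 5191 CPM in the HT-DNA libraries and 3892, 3526 and 3754 CPM with AOA (log2 change -0.51, SE 0.045, edgeR adjusted p = 3.54e-09), and this is the chaperone BiP. Levels in mock were 143 CPM for Herpud1 and 3863 CPM for Hspa5. The members that rose were the sensors Ern1 (IRE1) and Atf6 and the oxidoreductase Ero1a, named after their values were seen, at log2 changes of 0.96, 0.34 and 0.64.

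The ER stress element, CCAAT, then any 9 bases, then CCACG, on either strand, is the site that ATF6 and its partners are known to bind. It was found in the 250 bases before the start of 9 of 27 of these genes that have a RefSeq promoter (33.3%), against 0.16% of the promoters of tested genes and 0.113% of all 32851 promoters. All 9 genes fell: Syvn1, Dnajc3, Ero1b, Creld2, Hspa5, Hsp90b1, Calr, Pdia6 and Canx, with log2 changes from -1.60 to -0.17. In the whole list 26 of 32 genes (81.25%) fell, so a link between the element and the fall is not shown. A match is a description of letters and not of binding, and the element has long been known in several of these genes. The promoters of Syvn1 and Hspa5 are shown with the element in capitals (RefSeq, GRCm38.p6, chr19:6046326-6046575 and chr2:34771840-34772089, both on the plus strand). They had the largest log2 changes among those of the 9 that were named by the rule.
Syvn1: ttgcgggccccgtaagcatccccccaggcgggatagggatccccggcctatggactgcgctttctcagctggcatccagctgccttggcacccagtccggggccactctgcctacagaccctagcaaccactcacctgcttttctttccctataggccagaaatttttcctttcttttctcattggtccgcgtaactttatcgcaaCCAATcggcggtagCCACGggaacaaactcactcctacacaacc
Hspa5: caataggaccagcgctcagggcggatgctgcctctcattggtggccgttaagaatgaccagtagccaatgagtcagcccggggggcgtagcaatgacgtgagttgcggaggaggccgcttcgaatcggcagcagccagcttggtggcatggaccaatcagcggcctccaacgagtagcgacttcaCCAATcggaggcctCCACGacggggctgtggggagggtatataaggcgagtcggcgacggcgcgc

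Of 54 secretory pathway genes 5 rose, 31 fell and 18 were not called, with a median of -0.16. Sec24d was at 133, 127 and 132 CPM in the HT-DNA libraries and 77.9, 74.6 and 71.1 CPM with AOA (log2 change -0.81, SE 0.046, edgeR adjusted p = 3.61e-12). Sec24d and Sec24c are cargo adaptors of COPII vesicles, and Sec24c had a log2 change of -0.68 (SE 0.042, edgeR adjusted p = 1.97e-11). Stt3b, a catalytic subunit of oligosaccharyltransferase, had a log2 change of -0.50 (SE 0.041, edgeR adjusted p = 1.36e-09). The number that rose was 2 or 3 with library size alone as scaling and without HT-DNA replicate 2 or 3 or HT-DNA+AOA replicate 3. Genes of hexosamine and N-glycan synthesis went both ways, 12 of 37 rising and 11 falling. Gfpt2 and Dpm1 had log2 changes of 1.09 and 0.85 and Alg12 one of -0.79, with edgeR adjusted p of 8.82e-05, 1.39e-06 and 2.37e-09.

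Cytosolic heat shock chaperones fell in 19 of 29 cases and rose in 7, or in 4 with library size alone as scaling. Hsph1 was at 171, 169 and 162 CPM in the HT-DNA libraries and 94.3, 82.6 and 91.6 CPM with AOA (log2 change -0.90, SE 0.051, edgeR adjusted p = 3.48e-12). Hsph1 is a co-chaperone of Hsp70, and Hspa1b, an inducible Hsp70 with the near-identical copy Hspa1a, had a log2 change of -0.98 (SE 0.10, edgeR adjusted p = 2.01e-08). The mitochondrial chaperone Hspa9 and protease Lonp1 rose. Hspa9 was at 970.5, 980.3 and 994 CPM in the HT-DNA libraries and 1330, 1322 and 1335 CPM with AOA (log2 change 0.44, SE 0.037, edgeR adjusted p = 2.26e-09). Lonp1 was at 981, 982 and 931 CPM in the HT-DNA libraries and 1339, 1310 and 1299 CPM with AOA (log2 change 0.45, SE 0.044, edgeR adjusted p = 2.48e-08). The subunit of another mitochondrial protease, Clpx, fell (log2 change -0.48, SE 0.06, edgeR adjusted p = 6.80e-07). Of 23 chaperonin and mitochondrial chaperone genes 10 rose and 6 fell in all, and 6 rose without HT-DNA replicate 3 or with library size alone as scaling.

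Of 44 proteasome genes 5 rose and 21 fell, with a median of -0.12, and 3 rose without a filter on counts. Psmd5 was at 122, 118 and 115 CPM in the HT-DNA libraries and 69.96, 67.7 and 66.8 CPM with AOA (log2 change -0.79, SE 0.048, edgeR adjusted p = 1.03e-11). Psme4 was at 87.3, 87.8 and 91.7 CPM in the HT-DNA libraries and 53.7, 49.7 and 51.6 CPM with AOA (log2 change -0.78, SE 0.051, edgeR adjusted p = 3.60e-11). Psmd5, an assembly chaperone of the regulatory particle, and Psme4, the activator PA200, were both lower with AOA. Of 52 lysosome genes 28 rose and 10 fell, with a median of 0.14. Their summed level was 7324, 7165 and 7005 CPM in HT-DNA and 8100, 8128 and 7875 CPM with AOA. Lipa was at 69.6, 62 and 70.5 CPM in the HT-DNA libraries and 30.5, 26.9 and 24.97 CPM with AOA (log2 change -1.29, SE 0.066, edgeR adjusted p = 7.81e-13). Lipa, the acid lipase that frees cholesterol from its esters, thus fell most in its list, and the largest rises were Hgsnat and Idua, of heparan sulfate breakdown, at log2 changes of 0.68 and 0.64 (edgeR adjusted p of 3.27e-07 and 6.33e-07). Of 39 autophagy genes 9 rose and 15 fell. Those that fell most were Pik3c3, the lipid kinase Vps34, Atg2a, a lipid transfer protein, and Ulk1, the initiating kinase, at log2 changes of -0.91, -0.86 and -0.77 (edgeR adjusted p of 1.07e-08, 2.09e-10 and 1.39e-07).

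Of 18 aminotransferase genes listed 11 were tested, and all 11 were called, 7 higher and 4 lower. Got1 was at 139, 136 and 132 CPM in the HT-DNA libraries and 169.6, 162 and 174 CPM with AOA (log2 change 0.31, SE 0.045, edgeR adjusted p = 4.45e-06). Got2 was at 377, 360.4 and 348 CPM in the HT-DNA libraries and 399, 423 and 398 CPM with AOA (log2 change 0.17, SE 0.042, edgeR adjusted p = 0.0019). Got1 and Got2, the cytosolic and mitochondrial aspartate aminotransferases, were thus higher with no overlap of the groups. Oat was at 219, 212 and 199.6 CPM in the HT-DNA libraries and 135, 119 and 128 CPM with AOA (log2 change -0.72, SE 0.054, edgeR adjusted p = 3.22e-10). Oat, ornithine aminotransferase, fell most, and Kyat1, a kynurenine aminotransferase, rose most, at a log2 change of 0.71 (SE 0.12, edgeR adjusted p = 2.41e-05). Psat1, of serine synthesis, Bcat1, Gpt2 and Phykpl had log2 changes of 0.35, 0.19, 0.18 and 0.56, and Bcat2, the mitochondrial branched-chain enzyme, one of -0.35, with edgeR adjusted p of 3.72e-07, 5.29e-04, 0.00619, 5.51e-07 and 1.09e-04. Abat, the GABA aminotransferase, did not pass the filter on low counts.

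Other enzymes that use pyridoxal phosphate went both ways, with 7 of 22 higher and 9 lower. Cth was at 92.5, 86.7 and 88.5 CPM in the HT-DNA libraries and 146, 137 and 152 CPM with AOA (log2 change 0.70, SE 0.056, edgeR adjusted p = 9.94e-10). Cth makes cysteine from cystathionine, while Mocos, of molybdenum cofactor maturation, and Pygb, a glycogen phosphorylase, fell, with log2 changes of -1.04 and -0.75 (edgeR adjusted p of 5.46e-08 and 3.73e-11). Of 13 genes of the malate-aspartate and glycerophosphate shuttles 4 rose and 6 fell. The paralogous aspartate-glutamate carriers Slc25a13 and Slc25a12 both fell. Slc25a13 was at 47.8, 50.1 and 45.7 CPM in the HT-DNA libraries and 27.4, 26.6 and 27.9 CPM with AOA (log2 change -0.81, SE 0.056, edgeR adjusted p = 9.89e-11). Slc25a12 was at 43.9, 43.4 and 42.4 CPM in the HT-DNA libraries and 27.4, 27.4 and 29.6 CPM with AOA (log2 change -0.62, SE 0.056, edgeR adjusted p = 6.18e-09). Their mean levels in mock were 44.5 and 43.2 CPM.

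Of 25 amino acid transporters 12 rose and 8 fell, or 5 fell without HT-DNA replicate 3 and in a fit of the 6 libraries alone. Slc38a1 was at 9.96, 7.69 and 9.70 CPM in the HT-DNA libraries and 22.9, 23.3 and 23.8 CPM with AOA (log2 change 1.36, SE 0.10, edgeR adjusted p = 2.22e-10). Slc7a11 was at 31.1, 30.9 and 34.4 CPM in the HT-DNA libraries and 11.3, 15.1 and 13.4 CPM with AOA (log2 change -1.27, SE 0.083, edgeR adjusted p = 4.37e-11). Slc38a1, a glutamine carrier, and Slc7a11, which imports cystine, moved in opposite directions. Among 28 genes of serine, folate and proline synthesis 11 rose and 6 fell. Aldh1l2 was at 212, 226 and 264 CPM in the HT-DNA libraries and 477, 439 and 436 CPM with AOA (log2 change 0.95, SE 0.066, edgeR adjusted p = 3.02e-09). Aldh1l1 was at 13.8, 13.5 and 14.3 CPM in the HT-DNA libraries and 6.48, 7.65 and 7.27 CPM with AOA (log2 change -0.95, SE 0.091, edgeR adjusted p = 1.48e-08). The mitochondrial and the cytosolic formyltetrahydrofolate dehydrogenase, Aldh1l2 and Aldh1l1, thus changed in opposite directions. Among 35 genes of purine and pyrimidine synthesis 8 rose and 11 fell, or 18 fell with library size alone as scaling. Rrm2b and Rrm2, alternative small subunits of ribonucleotide reductase, had log2 changes of 1.24 and -0.57, with edgeR adjusted p of 4.68e-09 and 4.42e-10.

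Among 23 regulators and targets of the ATF4 pathway, the arm of the integrated stress response that follows phosphorylation of eIF2, 15 rose and 6 fell. Atf4 was at 778, 753 and 713 CPM in the HT-DNA libraries and 660.3, 653 and 651 CPM with AOA (log2 change -0.19, SE 0.046, edgeR adjusted p = 0.00124). Ddit3 was at 106, 113 and 106 CPM in the HT-DNA libraries and 393, 400.2 and 400.3 CPM with AOA (log2 change 1.87, SE 0.044, edgeR adjusted p = 4.82e-18). Ddit3, the factor CHOP, was higher in all 3 AOA libraries while the RNA of Atf4 was lower, and Gdf15, a stress cytokine, had a log2 change of 1.55 (SE 0.11, edgeR adjusted p = 5.01e-07). The ATF4 composite element TGATGNAA on either strand was found before 10 of 51 genes of this list, the amino acid transporters and the cytosolic tRNA synthetases (19.6%), against 2.44% of the promoters of tested genes and 3.45% of all. Of the 10 genes 7 rose, 2 fell and 1 was not called. The promoters of Slc7a11, which fell, and Aars, which rose, are shown with the element in capitals. They were taken by size of log2 change among genes named by the rule that hold the element. Positions are those of RefSeq, GRCm38.p6 (chr3:50443614-50443863 on the minus strand for Slc7a11 and chr8:111033592-111033841 on the plus strand for Aars).
Slc7a11: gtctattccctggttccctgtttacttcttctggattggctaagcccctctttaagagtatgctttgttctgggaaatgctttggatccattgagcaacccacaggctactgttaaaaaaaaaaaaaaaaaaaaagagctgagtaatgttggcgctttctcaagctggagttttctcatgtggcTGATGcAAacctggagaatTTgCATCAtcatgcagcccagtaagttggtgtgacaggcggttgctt
Aars: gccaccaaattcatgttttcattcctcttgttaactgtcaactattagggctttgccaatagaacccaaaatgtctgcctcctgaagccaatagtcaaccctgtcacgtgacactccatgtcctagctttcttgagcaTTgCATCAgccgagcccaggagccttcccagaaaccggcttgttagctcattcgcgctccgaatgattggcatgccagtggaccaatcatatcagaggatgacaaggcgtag

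Of 23 genes of sterol synthesis and uptake, which SREBP2 is known to drive, none rose and 18 fell, and their summed level was 2210, 2213 and 2195 CPM in HT-DNA and 1546, 1595 and 1577 CPM with AOA. Of 22 genes of fatty acid synthesis and desaturation 4 rose and 12 fell. Srebf1 was at 346, 343 and 324 CPM in the HT-DNA libraries and 195, 198 and 187 CPM with AOA (log2 change -0.81, SE 0.045, edgeR adjusted p = 3.61e-12). Dgat2 was at 11.1, 11.6 and 12.1 CPM in the HT-DNA libraries and 21.9, 27.9 and 26.2 CPM with AOA (log2 change 1.13, SE 0.095, edgeR adjusted p = 1.91e-09). Srebf1, the SREBP of fatty acid synthesis, fell, while Dgat2, the last enzyme of triglyceride synthesis, rose. LXR is known to drive genes of sterol export. Of 12 such genes 2 rose and 5 fell, or 1 rose with library size alone, 4 rose with a filter at 1 CPM, and 3 fell without HT-DNA replicate 2 or without HT-DNA+AOA replicate 2. Apoe was at 21.4, 23.9 and 22.6 CPM in the HT-DNA libraries and 7.97, 8.03 and 8.53 CPM with AOA (log2 change -1.47, SE 0.093, edgeR adjusted p = 2.53e-11). Abca1 was at 67.4, 65.7 and 73.7 CPM in the HT-DNA libraries and 45.7, 39.6 and 42.3 CPM with AOA (log2 change -0.70, SE 0.062, edgeR adjusted p = 5.15e-09). Apoe, a lipid carrier, and Abca1, the cholesterol exporter, were both lower with AOA. Npc1, of lysosomal cholesterol export, had a log2 change of 0.26 (SE 0.056, edgeR adjusted p = 4.18e-04).

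Of 26 genes of phospholipid synthesis 5 rose and 11 fell. Chka was at 61.9, 60.4 and 63.5 CPM in the HT-DNA libraries and 149, 149.6 and 170.0 CPM with AOA (log2 change 1.33, SE 0.051, edgeR adjusted p = 7.22e-15). Etnk1 was at 111, 107 and 118 CPM in the HT-DNA libraries and 63.2, 52.8 and 60.5 CPM with AOA (log2 change -0.94, SE 0.058, edgeR adjusted p = 1.59e-11). Choline kinase and ethanolamine kinase, the entry enzymes of the phosphatidylcholine and phosphatidylethanolamine branches, changed in opposite directions. Gpat3 was at 34, 32.5 and 32.8 CPM in the HT-DNA libraries and 66.8, 71.4 and 74.4 CPM with AOA (log2 change 1.10, SE 0.055, edgeR adjusted p = 5.72e-13), and this enzyme starts glycerolipid synthesis. Lpin3 was at 139, 140.0 and 139 CPM in the HT-DNA libraries and 66.2, 53.9 and 58.8 CPM with AOA (log2 change -1.23, SE 0.056, edgeR adjusted p = 1.21e-13), and this is a phosphatidate phosphatase. Of 33 genes of PGC-1, PPAR and fatty acid oxidation 6 rose and 11 fell. Lpin1 had a log2 change of -1.33 and Acot2, a mitochondrial acyl-CoA thioesterase, one of 1.39 (edgeR adjusted p of 2.82e-08 and 2.63e-12).

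Of 31 NRF2 targets and glutathione genes 4 rose, 17 fell and 10 were not called, with a median of -0.16. Pgd was at 368, 369.5 and 343 CPM in the HT-DNA libraries and 138, 127 and 128 CPM with AOA (log2 change -1.46, SE 0.044, edgeR adjusted p = 2.78e-16). Cat was at 27.9, 27 and 24.4 CPM in the HT-DNA libraries and 10.5, 9.53 and 10.5 CPM with AOA (log2 change -1.39, SE 0.078, edgeR adjusted p = 3.53e-12). Pgd, an NADPH-making enzyme of the pentose phosphate pathway, and Cat, catalase, were each lower in all AOA libraries than in HT-DNA, at values also under those of mock (323 and 29.1 CPM). The members that rose were Nfe2l2 itself, Hmox1, Chac1 and Abcc4, named after their values were seen, at log2 changes of 0.47, 0.36, 0.63 and 0.65. Among 30 genes of iron, heme and metallothioneins 13 rose and 9 fell, with the metallothionein Mt2 at a log2 change of 0.89 and the heme synthesis enzyme Cpox at a log2 change of 0.94 (edgeR adjusted p of 1.23e-12 and 3.56e-10). Of 17 genes of osmolyte transport and NFAT5 targets 4 rose and 7 fell, with Sgk1, a kinase of salt balance, at a log2 change of -1.01 (SE 0.11, edgeR adjusted p = 6.40e-08).

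Of 17 polyamine genes 11 rose and 1 fell, with a median of 0.25. Odc1 was at 1462, 1454 and 1458 CPM in the HT-DNA libraries and 2340, 2351 and 2330 CPM with AOA (log2 change 0.68, SE 0.038, edgeR adjusted p = 2.81e-12). Odc1, ornithine decarboxylase, makes putrescine, and its 3 values per group lay close together. In mock and in HT-DNA+AOA+Asp the mean was 949.5 and 1122 CPM, so HT-DNA+AOA was the highest of the 4 groups. Slc3a2, the heavy chain of amino acid exchangers, and Dhps, which uses spermidine to modify eIF5A, had log2 changes of 0.48 and 0.40 (edgeR adjusted p of 3.60e-08 and 2.63e-05). Counted as lower were 3 members without HT-DNA replicate 3 or with library size alone as scaling, and 2 without HT-DNA+AOA replicate 1.

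Of 80 nuclear-encoded respiratory chain genes 12 rose, 9 fell and 59 were not called, with a median of 0.00, and 62 had an interval within 0.32 of no change on the log2 scale. Without HT-DNA replicate 3 the counts were 6 higher and 17 lower, with library size alone as scaling 4 and 17, and without HT-DNA replicate 1 the number that fell was 5. Uqcrh was at 73.5, 72.96 and 66.01 CPM in the HT-DNA libraries and 47.8, 53.6 and 50.3 CPM with AOA (log2 change -0.48, SE 0.059, edgeR adjusted p = 4.27e-07). Uqcrh is a subunit of complex III. Log2 changes of the nuclear-encoded genes ran from -0.49 to 1.57, so the largest change was a rise. Of 13 mitochondrially encoded transcripts 2 rose and 2 fell, with mt-Cytb at a log2 change of 0.59 and mt-Nd1 at a log2 change of -0.39, and nuclear copies make these values uncertain. Of 42 genes of the TCA cycle and glutamine entry 15 rose and 13 fell. Pdk2 was at 9.58, 9.35 and 9.75 CPM in the HT-DNA libraries and 5.18, 4.73 and 3.43 CPM with AOA (log2 change -1.10, SE 0.12, edgeR adjusted p = 1.19e-07). Pdhx was at 37.7, 37.8 and 36.05 CPM in the HT-DNA libraries and 21.3, 17.6 and 20 CPM with AOA (log2 change -0.93, SE 0.067, edgeR adjusted p = 2.02e-10). Pdk2, an inhibitor kinase of pyruvate dehydrogenase, and Pdhx, a subunit of that complex, both fell. Of 37 glycolysis and HIF target genes 11 rose and 15 fell. Vegfa rose (log2 change 0.71, SE 0.044, edgeR adjusted p = 1.80e-11), while Pfkfb4, which sets fructose bisphosphate levels, and the lactate exporter Slc16a3 fell, with log2 changes of -0.90 and -0.83 (edgeR adjusted p of 8.92e-09 and 4.94e-05).

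**Figure D5:**
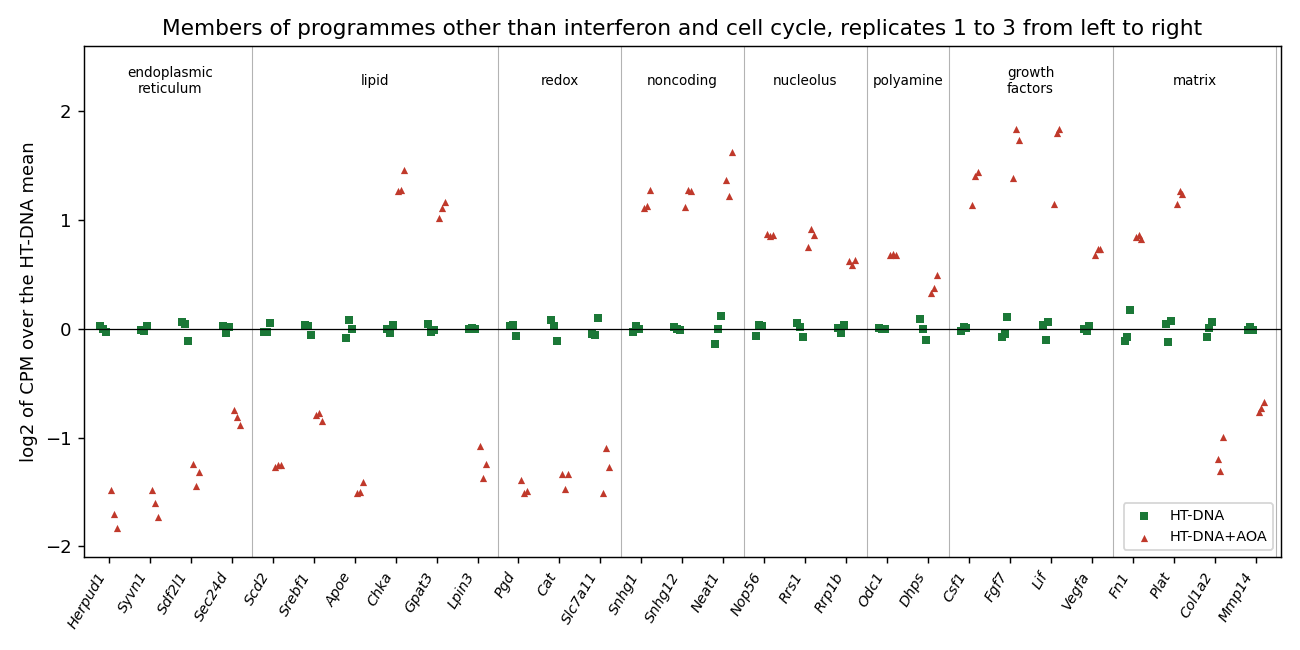
Log2 of the CPM in each library over the mean of the 3 HT-DNA libraries, for named members of programmes other than interferon and cell cycle, with green squares for HT-DNA and red triangles for HT-DNA+AOA, replicates 1 to 3 from left to right. No red triangle reaches the green squares of the same gene, as the naming rule required. Replicate 1 is the nearest to 0 of the AOA libraries for Herpud1, Fgf7, Lif and Csf1.

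Of 42 growth factors and cytokines 22 were tested, of which 12 rose and 3 fell, or 1 fell without HT-DNA+AOA replicate 3. The median was 0.82, and the summed level was 2498, 2526 and 2507 CPM in HT-DNA and 5131, 6154 and 6184 CPM with AOA. Most of that sum and of its rise was Csf1 alone, with means of 1806 CPM in HT-DNA and 4555 CPM with AOA. Fgf7 was at 17.3, 17.6 and 19.6 CPM in the HT-DNA libraries and 47.5, 64.7 and 60.4 CPM with AOA (log2 change 1.67, SE 0.093, edgeR adjusted p = 4.07e-11). Lif was at 13.3, 12.1 and 13.6 CPM in the HT-DNA libraries and 28.8, 45.3 and 46.5 CPM with AOA (log2 change 1.64, SE 0.15, edgeR adjusted p = 1.21e-06). Fgf7, a growth factor for epithelia, and Lif, of the interleukin-6 family, were lowest in replicate 1 among the AOA libraries. Of 21 receptor tyrosine kinases 4 rose and 11 fell, with a median of -0.30. Tyro3 was at 68.7, 67.1 and 61.4 CPM in the HT-DNA libraries and 39.96, 36.8 and 35.2 CPM with AOA (log2 change -0.82, SE 0.061, edgeR adjusted p = 2.91e-10). Met was at 40.5, 37.04 and 43.5 CPM in the HT-DNA libraries and 63.7, 63.3 and 65.05 CPM with AOA (log2 change 0.67, SE 0.056, edgeR adjusted p = 1.95e-09). Tyro3, of the TAM receptors, fell and Met, the receptor of hepatocyte growth factor, rose.

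Of 31 immediate early and AP-1 genes 14 rose and 7 fell, and of 23 feedback genes of MAP kinase signalling 10 rose and 7 fell. Myc was at 259, 248 and 232 CPM in the HT-DNA libraries and 595, 784 and 680.5 CPM with AOA (log2 change 1.48, SE 0.078, edgeR adjusted p = 1.82e-09). Dusp5 was at 24.6, 24.3 and 18.8 CPM in the HT-DNA libraries and 50.5, 72.9 and 73.2 CPM with AOA (log2 change 1.53, SE 0.16, edgeR adjusted p = 1.55e-05). Dusp5, a nuclear phosphatase of ERK, and Dusp10, a phosphatase of JNK and p38, were both higher, the latter at a log2 change of 1.26 (SE 0.11, edgeR adjusted p = 2.87e-09). Etv1, an ETS factor, had a log2 change of -0.92 (SE 0.095, edgeR adjusted p = 4.68e-08), while Maff and Ier3, both immediate early genes, had log2 changes of 1.03 and 0.80 (edgeR adjusted p of 2.61e-07 and 1.50e-07).

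Of 20 genes of the Notch and Hedgehog pathways 3 rose and 11 fell. Rbpj was at 96.9, 96.2 and 104 CPM in the HT-DNA libraries and 239, 268 and 257 CPM with AOA (log2 change 1.36, SE 0.047, edgeR adjusted p = 2.66e-15). Numbl was at 21.6, 21.7 and 21.1 CPM in the HT-DNA libraries and 8.97, 9.07 and 7.95 CPM with AOA (log2 change -1.31, SE 0.075, edgeR adjusted p = 4.66e-12). Gli1 was at 15.2, 14.1 and 12.9 CPM in the HT-DNA libraries and 8.47, 6.76 and 6.55 CPM with AOA (log2 change -0.97, SE 0.10, edgeR adjusted p = 3.34e-08). Rbpj, the DNA-binding factor of Notch signalling, rose while Numbl, an adaptor that opposes Notch, and Gli1, a Hedgehog target, fell. Of 21 Wnt pathway genes 5 rose and 12 fell, with Porcn, which lipidates Wnt proteins, at a log2 change of 0.90, Wnt5b at a log2 change of -0.71 and the receptor Lgr4 at a log2 change of -0.63 (edgeR adjusted p of 2.00e-07, 3.11e-04 and 5.23e-07). In the TGF-beta and BMP pathway 9 of 35 rose and 13 fell. Grem1 was at 96.8, 105 and 109 CPM in the HT-DNA libraries and 218, 222 and 218 CPM with AOA (log2 change 1.08, SE 0.05, edgeR adjusted p = 1.39e-13). Grem1 is a BMP antagonist, and the ligand Tgfb3 had a log2 change of -1.06 (SE 0.10, edgeR adjusted p = 8.07e-09).

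Of 14 prostaglandin genes 8 rose and 4 fell. Ptges was at 124, 125 and 122 CPM in the HT-DNA libraries and 68.7, 77.03 and 74.3 CPM with AOA (log2 change -0.75, SE 0.047, edgeR adjusted p = 1.87e-11). Pla2g4a was at 2.55, 2.65 and 2.95 CPM in the HT-DNA libraries and 5.93, 7.68 and 5.87 CPM with AOA (log2 change 1.27, SE 0.16, edgeR adjusted p = 8.27e-07). Pla2g4a, the phospholipase that releases arachidonic acid, rose, and Ptges, the terminal synthase of prostaglandin E2, fell, as did the receptor gene Ptger1 (log2 change -0.95, SE 0.24, edgeR adjusted p = 0.00544). Of 22 circadian clock genes 11 rose and 4 fell. Per2 was at 7.95, 9.23 and 9.35 CPM in the HT-DNA libraries and 17.2, 17.8 and 19.9 CPM with AOA (log2 change 1.05, SE 0.10, edgeR adjusted p = 1.70e-08). Ciart was at 17.3, 16.6 and 18.8 CPM in the HT-DNA libraries and 30.7, 35.3 and 33.6 CPM with AOA (log2 change 0.92, SE 0.071, edgeR adjusted p = 5.00e-10). Per2 and Ciart, repressors of the clock, were higher in each AOA library, and Bhlhe41, another repressor, had a log2 change of 0.76 (SE 0.089, edgeR adjusted p = 2.54e-06).

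Tubulins fell in 7 of 12 cases and rose in 1. Tubb4b was at 761, 779 and 713 CPM in the HT-DNA libraries and 471, 466 and 462 CPM with AOA (log2 change -0.69, SE 0.04, edgeR adjusted p = 7.20e-12). Tuba1b was at 1314, 1272 and 1193 CPM in the HT-DNA libraries and 1077, 956 and 1006 CPM with AOA (log2 change -0.32, SE 0.051, edgeR adjusted p = 1.98e-05). Mean levels in mock were 486 CPM for Tubb4b and 793 CPM for Tuba1b, and reads may be split among close copies of tubulin genes. Without HT-DNA+AOA replicate 2 the number of tubulins that rose was 2. Of 32 YAP and SRF targets 15 rose and 11 fell, with tissue factor F3 at a log2 change of 0.92 and the matrix protein Ccn1 at a log2 change of -0.77 (edgeR adjusted p of 1.05e-07 and 3.33e-05). Of 31 integrins and adhesion genes 12 rose and 6 fell, or 10 fell with library size alone as scaling. Itgb7 was at 182, 178 and 165 CPM in the HT-DNA libraries and 431, 444 and 440.3 CPM with AOA (log2 change 1.32, SE 0.049, edgeR adjusted p = 4.62e-15). Itga3 was at 45.4, 44.4 and 45.7 CPM in the HT-DNA libraries and 28.1, 28.2 and 29.9 CPM with AOA (log2 change -0.65, SE 0.061, edgeR adjusted p = 9.43e-09). Itgb7, a beta chain best known from lymphocytes, rose and Itga3, a laminin receptor chain, fell.

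Of 43 collagens and matrix genes 17 rose and 13 fell. Col1a2 was at 119, 125 and 130.1 CPM in the HT-DNA libraries and 54.4, 50.4 and 62.5 CPM with AOA (log2 change -1.16, SE 0.063, edgeR adjusted p = 7.46e-12). Fn1 was at 36.9, 37.7 and 44.9 CPM in the HT-DNA libraries and 71.4, 72.6 and 70.6 CPM with AOA (log2 change 0.85, SE 0.067, edgeR adjusted p = 7.48e-10). Both mark fibroblasts, and they moved in opposite directions. Of the 9 fibroblast markers tested 1 rose and 7 fell. Fewer counts of a marker per cell and fewer cells that make it cannot be told apart in RNA of whole cultures. Of 28 matrix proteases and inhibitors 7 rose and 6 fell. Plat was at 11.6, 10.3 and 11.8 CPM in the HT-DNA libraries and 24.9, 27.2 and 26.7 CPM with AOA (log2 change 1.22, SE 0.10, edgeR adjusted p = 1.18e-09). Mmp14 was at 170.1, 173 and 170.4 CPM in the HT-DNA libraries and 101, 104 and 107 CPM with AOA (log2 change -0.72, SE 0.045, edgeR adjusted p = 1.90e-11). Plat, tissue plasminogen activator, rose, while Mmp14, a membrane-bound collagenase, fell.

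Of 35 apoptosis genes 8 rose and 20 fell, with a median of -0.18. Casp9 was at 17.9, 19.7 and 16.2 CPM in the HT-DNA libraries and 10.5, 8.64 and 8.89 CPM with AOA (log2 change -0.95, SE 0.092, edgeR adjusted p = 1.64e-08). Casp9, the initiator caspase of the mitochondrial pathway, Casp6, an effector caspase, and Tradd, an adaptor of TNF receptors, all fell, the last pair with log2 changes of -0.69 and -0.78 (edgeR adjusted p of 6.11e-07 and 3.55e-07). Of 28 p53 targets 11 rose and 8 fell, or 4 or 5 fell without HT-DNA replicate 3, HT-DNA+AOA replicate 2 or HT-DNA+AOA replicate 3. Gadd45a was at 45.7, 44.9 and 41.7 CPM in the HT-DNA libraries and 154, 209.7 and 214 CPM with AOA (log2 change 2.13, SE 0.12, edgeR adjusted p = 1.38e-07). Eda2r was at 4.49, 5.00 and 4.35 CPM in the HT-DNA libraries and 10.5, 11.1 and 11.02 CPM with AOA (log2 change 1.23, SE 0.13, edgeR adjusted p = 5.03e-08). Gadd45a, a stress sensor of the cell cycle, and Eda2r, a TNF receptor family member, were higher in all AOA libraries. Of 60 DNA repair genes 14 rose and 19 fell, with Rad52, of recombination, at a log2 change of 0.92 and the checkpoint kinase Chek2 at a log2 change of -0.80 (edgeR adjusted p of 1.03e-07 and 3.74e-07).

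In the cell cycle, all 32 mitosis genes fell. Their summed level was 4059, 4198 and 4273 CPM in HT-DNA and 2629, 2616 and 2590 CPM with AOA. Of 37 DNA replication genes 5 rose and 21 fell, with a median of -0.20, and 2 rose with library size alone as scaling. Cdc6 was at 40.3, 37.3 and 40.4 CPM in the HT-DNA libraries and 25.5, 26.1 and 24.8 CPM with AOA (log2 change -0.63, SE 0.057, edgeR adjusted p = 7.37e-09). Cdc6 loads the replicative helicase, and Prim2, a primase subunit, had a log2 change of -0.68 (SE 0.072, edgeR adjusted p = 6.51e-08). Of 64 replication-dependent histone genes 21 were tested, and none rose and 2 fell, with 1 to 6 that fell across the alternatives that moved the count. The short CHR element TTTGAA, on either strand, was present before 10 of 26 mitosis genes (38.5%), against 13.3% of the promoters of tested genes and 16% of all. Since all 32 mitosis genes fell, with or without the element, a link between it and the fall is not shown.

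On the immune side, 42 of 45 interferon-stimulated genes and 24 of 28 NF-kB targets rose, and none fell. The summed level of the NF-kB targets was 3414, 3502 and 3466 CPM in HT-DNA and 8481, 9848 and 10210 CPM with AOA, with replicate 1 the lowest. Csf1, counted in this list too, made up much of that sum, with means of 1806 and 4555 CPM. The NF-kB site, GGG, any 2 bases and TTTCC on either strand, was found before 9 of 22 of them (40.9%), against 1.85% of the promoters of tested genes and 1.41% of all. The core of the interferon-stimulated response element, GAAA, any 2 bases and GAAA on either strand, was found before 15 of 33 interferon-stimulated genes (45.5%), against 3.22% and 2.98%. Both lists were made of known targets and most of their members rose, so a link between these sites and the rise is not shown. Cxcl1 was at 154, 151 and 153 CPM in the HT-DNA libraries and 992, 1361 and 1344 CPM with AOA (log2 change 3.01, SE 0.12, edgeR adjusted p = 6.39e-09). Cxcl1 and Cxcl2 were among the 10 largest rises, and each promoter holds a pair of matches, shown in capitals (RefSeq, GRCm38.p6, chr5:90903649-90903898 for Cxcl2 and chr5:90890995-90891244 for Cxcl1, both on the plus strand).
Cxcl2: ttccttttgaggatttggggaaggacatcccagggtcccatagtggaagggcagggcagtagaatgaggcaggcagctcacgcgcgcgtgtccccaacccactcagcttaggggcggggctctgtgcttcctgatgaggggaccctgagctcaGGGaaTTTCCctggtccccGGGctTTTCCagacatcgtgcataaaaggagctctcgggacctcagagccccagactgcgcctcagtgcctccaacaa
Cxcl1: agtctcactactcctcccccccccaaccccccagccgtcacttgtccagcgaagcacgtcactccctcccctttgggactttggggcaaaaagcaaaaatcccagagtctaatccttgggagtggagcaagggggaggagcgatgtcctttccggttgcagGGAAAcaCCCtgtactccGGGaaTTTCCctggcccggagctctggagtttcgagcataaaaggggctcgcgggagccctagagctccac

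Motif matches were few in 3 other lists. The sterol element TCACNCCAC was found before 1 of 18 sterol genes (5.56%), against 1.24% of the promoters of tested genes. The E-box CACGTG was found before 2 of 42 ribosome biogenesis genes (4.76%), against 9.97%. The heat shock element, GAA, TTC and GAA with any 2 bases between them, was found before 1 of 25 heat shock genes (4%), against 0.489%. No match says only that these letters are not within 250 bases before the annotated start.

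The 3 AOA libraries differed in the size of the changes. Among 144 genes of 20 CPM or more that were at least 2-fold higher, replicate 1 was the lowest AOA library for 93 (64.6%), and the median log2 difference from the HT-DNA mean was 1.17, 1.27 and 1.28 in replicates 1 to 3. Among 92 that were at least 2-fold lower, replicate 1 was the highest for 61 (66.3%), with medians of -1.07, -1.19 and -1.17. Cebpb was at 57.7, 49.4 and 41.4 CPM in the HT-DNA libraries and 98.7, 273 and 208 CPM with AOA (log2 change 1.97, SE 0.36, edgeR adjusted p = 0.00159). Cebpb, an inducer of acute phase genes, was the called gene with the widest relative spread among the AOA libraries at 20 CPM or more. Its lowest AOA value was above every HT-DNA value, as the naming rule required. Of 7756 genes of 20 CPM or more, 160 had a coefficient of variation over 15% among the AOA libraries and 66 among the HT-DNA libraries, while the medians were 4.6% and 4.32%. Without HT-DNA+AOA replicate 1 the counts of genes at least 2-fold changed were 794 higher and 475 lower.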

How the data were processed

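Total RNA from 12 libraries was measured by RNA sequencing at Majorbio after TRIzol extraction, as the labels' protocols state. The authors deposited a table of estimated counts, not all of them whole, for 56287 entries, of which 873 are assembled loci and 26710 have 0 in all 12 libraries. Which aligner, counter, genome build and strand setting the authors used is not given in the sources used here. Libraries were grouped by the labels' treatment into 4 groups of 3.

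Counts were rounded to whole numbers. In edgeR 4.0.16 (R 4.3.3) all 12 libraries entered a quasi-likelihood fit with a term per group, TMM scaling and the filterByExpr filter, and HT-DNA+AOA was contrasted with HT-DNA, with Benjamini-Hochberg adjustment over 14694 genes and a threshold of 0.05. Standard errors were derived from the F statistic, and 95% intervals from them. Alternatives were library size alone, relative log expression factors, DESeq2 1.42.0, other filters, the 6 libraries alone, a replicate block and leaving out each library. The fit was tested on simulated data.

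Members and gene lists were chosen with earlier results of these data known, so no set test was run and each list is described by its counts. Named genes were called, at 5 CPM or more in the higher group, without overlap of the groups and with a gene name: the 10 largest rises and falls, the 5 largest gains and losses in CPM, no more than 3 genes per list, those of largest change, and 11 genes named whatever their values, Got1, Got2, Gpt2, Psat1, Bcat1, Bcat2, Oat, Abat, Atf4, Actb and Gapdh. Abat did not pass the filter, and 1 gene named by the rule is not reported here. A symbol with several identifiers was taken at the entry with the most counts. Gene classes came from GENCODE M21 by Ensembl identifier and promoters from RefSeq GRCm38.p6 by symbol, with 250 bases before the start searched. Counts give counting error only, and 3 counts correspond to 0.11 to 0.15 CPM in the 6 libraries.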

Additional observations from a re-analysis of the deposited data

How the results depend on the processing

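The counts of genes higher and lower kept within 1.5 times under all alternatives run, and no gene was called in opposite directions. The counts ran from 3116 higher and 4615 lower with library size alone, where 40.31% of the calls were higher, to 3818 and 3828 with relative log expression factors, where 49.93% were. DESeq2 called 3576 higher and 3655 lower. With the replicate block they were 3595 and 3781. Same-numbered libraries had correlations of their deviations of -0.0887, -0.026 and -0.00528, and differently numbered ones from -0.0658 to 0.0984. No shared deviation by replicate number was thus seen, which does not show how the samples were prepared. Leaving out each library in turn gave 3384 to 3602 higher and 3535 to 3810 lower. Genes at least 2-fold higher numbered 522 with a 1 CPM filter and 897 without a filter, and those at least 2-fold lower 330 and 499. None of the 218 named genes changed its call under any alternative, but nearly all were chosen for large changes without overlap. Of all genes called higher, 83.09% were called higher again with library size alone and 86.83% without HT-DNA replicate 1. For all genes called lower these shares were 100% and 89.58%. Of 883 recomputed counts of list members that were higher 22 moved by over 1.5 times, and 21 of 883 of those lower, while 172 of 883 medians of a list moved by more than the SD among the AOA libraries. The median changed sign under at least 1 alternative for 16 lists, 9 of them with library size alone and 10 with a library left out. For 12 of the 16 it lay within 0.046 of 0 on TMM scaling. For the others, the median of epithelial markers went from 0.629 to -0.032 in a fit of the 6 libraries alone. Without HT-DNA replicate 3 that of macrophage and leukocyte markers went from 0.362 to -0.021 and that of MAP kinase feedback genes from 0.076 to -0.022. Without HT-DNA+AOA replicate 2 the latter was -0.049, and that of mitochondrially encoded transcripts went from 0.093 to -0.046. At this depth the median SE was 0.43 for genes under 1 CPM, which limits what could be called there.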

Other observations

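The deposited table pairs genes with KEGG pathways, and the 303 pathways with 15 to 300 tested genes were described by counts alone. The highest share of genes that were higher was in rheumatoid arthritis, a term made of cytokines, chemokines and proton pump subunits, with 28 of 49 higher and 8 lower. In arginine and proline metabolism, which holds polyamine and aldehyde dehydrogenase genes, 18 of 35 were higher and 7 lower. In viral protein interaction with cytokine and its receptor 18 of 33 were higher and 5 lower. The highest share of genes that were lower was in terpenoid backbone biosynthesis, the mevalonate pathway, with 17 of 21 lower and 1 higher. In steroid biosynthesis 11 of 16 were lower and 2 higher, in mismatch repair 14 of 22 and 2, and in GnRH secretion 23 of 35 and 4. The pathways share genes with each other and with the lists above.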
